A study of Mus musculus with 6 samples.

Results

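The 10 genes described here encode parts of the inflammasome and pyroptosis machinery: the sensors Nlrp3, Nlrc4, Naip2 and Naip5, the adaptor Pycard, the inflammatory caspases Casp1 and Casp4, the pore-forming executor Gsdmd, the cytokine Il18 and its soluble inhibitor Il18bp. They were listed by gene symbol and function, with earlier results of these data known. All 10 of 10 were found among the 36137 genes with a transcript in the deposited tables, and all 10 passed the filter of at least 10 estimated counts in total, as did 18506 genes in all.

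Inflammasomes are protein platforms that assemble when a cytosolic sensor meets a microbial product or a sign of cell damage. The sensor recruits caspase-1, directly or through the adaptor ASC (the product of Pycard), and caspase-1 then cleaves the precursors of IL-1β and IL-18 and cuts gasdermin D, whose fragment forms pores in the plasma membrane. Caspase-11, the product of mouse Casp4, binds lipopolysaccharide in the cytosol and cuts gasdermin D without a separate sensor. In macrophages most of these proteins are present before activation and are switched on by assembly and cleavage, steps that an mRNA measurement does not see.

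RNA was sequenced from bone marrow–derived macrophages (BMDMs), which are macrophages grown from marrow progenitors with L929 cell-conditioned medium, after 7 days of culture and 8 hours of hypoxia with serum starvation (HSS), a culture model of ischemia, at 2.1% oxygen. The WT group carried LysM-Cre +/– with Drp1 +/+ alleles and the Drp1 KO group LysM-Cre +/– with Drp1 fl/fl, so that the lysozyme M–driven Cre, active in myeloid cells, was present in both. Each group had 3 libraries, labelled as biological replicates, from young adult mice of both sexes, and marrow from a pair of mice per genotype was pooled. The sources used here do not say whether each library came from a pool of its own, so the p-values measure the spread between these libraries. No normoxic or serum-fed libraries were analysed here, so no value bears on the effect of HSS itself.

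Each library held 23389488 to 32231206 estimated reads. Levels are given as CPM, each gene's share of a library's counts on a per-million scale after TMM scaling, and 3 counts, taken as the detection floor, correspond to 0.0917 to 0.136 CPM, far below every member. Dnm1l, the gene for DRP1, stood at 72.7, 69.9 and 75.1 CPM in WT libraries 1 to 3 and at 58.7, 60.7 and 66.3 CPM in Drp1 KO libraries 1 to 3. The groups did not overlap, with a log2 fold change of -0.23 (SE 0.0921) that did not pass over all genes (adjusted p = 0.248, edgeR). A gene total also takes in reads outside a deleted exon, so it is a weak check of the labels. The 8 macrophage markers, Adgre1, Csf1r and Lyz2 among them, ranged in sum from 13400 to 14800 CPM over WT and from 12000 to 14400 CPM over Drp1 KO libraries, and 3 of them passed (edgeR), 1 higher and 2 lower in Drp1 KO. Among all genes tested, 2.29% passed higher and 1.06% lower. Lymphocyte, dendritic cell and fibroblast markers each summed to at most 5.83 CPM in any library.

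The inflammatory caspases rose in Drp1 KO BMDMs, while the sensors, the adaptor and the executor did not pass the test. Casp4 was 1.84-fold and Casp1 1.59-fold as high as in WT, each higher in 3 of 3 Drp1 KO libraries than in any WT library. The IL-18 inhibitor Il18bp was 1.46-fold as high, and passed in edgeR with the libraries paired by number and in DESeq2 without pairing, but not in the reported edgeR fit. At an adjusted p under 0.05 in edgeR's quasi-likelihood test, 2 of the 10 members rose and 0 fell (0 were lower at an unadjusted p under 0.05 and 0 by DESeq2), where 3.36% of all genes tested passed, 2.29% higher and 1.06% lower. With the replicate number as a block, 3 of 10 rose and 0 fell, where 12.0% of all genes passed (6.73% higher and 5.22% lower). The groups did not overlap for 3 of the 10, all higher in Drp1 KO, where 21.9% of all genes did not overlap, 11.7% higher and 10.3% lower. These same 3, Casp1, Casp4 and Il18bp, met the study's own criteria on fold change and unadjusted p, as did 12.7% of all genes (7.19% higher and 5.48% lower). The median log2 fold change of the members was 0.16, against 0.00 over all genes tested. In bulk RNA, fewer or more cells that express a gene and less or more RNA per cell cannot be told apart.

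**Figure D1:**
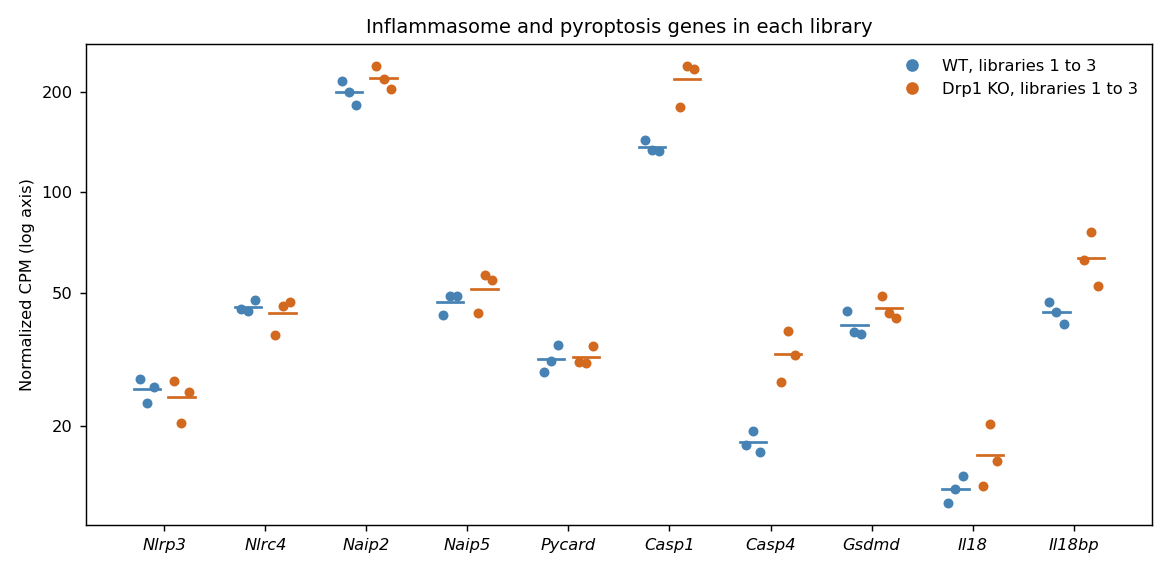
Normalized CPM (log axis) of the 10 members in each of the 3 WT (blue) and 3 Drp1 KO (orange) libraries, ordered 1 to 3 from left to right, with a line at each group mean. For Casp1, Casp4 and Il18bp every Drp1 KO library lies above every WT library, and for the other 7 genes the groups overlap.

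The caspase genes lie side by side on chromosome 9 of GRCm39, on the plus strand, with 1537 bases between the end of Casp1 (chr9:5298508-5307290) and the start of Casp4 (chr9:5308828-5336783). Since these were the members that rose, the 300 bases before the start of their canonical transcripts, read from the GRCm39 genome, are shown here 5′ to 3′.
Casp1, chr9:5298208-5298507, plus strand: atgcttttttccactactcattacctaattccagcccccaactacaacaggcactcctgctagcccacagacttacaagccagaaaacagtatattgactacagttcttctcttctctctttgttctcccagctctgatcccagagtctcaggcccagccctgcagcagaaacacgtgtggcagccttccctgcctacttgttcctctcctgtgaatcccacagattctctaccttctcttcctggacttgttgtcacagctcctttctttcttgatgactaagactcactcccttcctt
Casp4, chr9:5308543-5308842, plus strand: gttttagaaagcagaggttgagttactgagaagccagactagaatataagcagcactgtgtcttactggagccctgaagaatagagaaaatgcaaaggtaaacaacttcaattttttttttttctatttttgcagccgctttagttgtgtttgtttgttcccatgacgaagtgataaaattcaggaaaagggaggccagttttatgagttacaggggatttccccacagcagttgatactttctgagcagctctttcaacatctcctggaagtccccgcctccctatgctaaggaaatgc
Each window was searched on both strands for GAAA, any 2 bases and GAAA in a row, the core of the interferon-stimulated response element, and for TTCNNNGAA, the core of a STAT site, and matches would stand in capitals. Neither window held either string of letters. Over the windows of all 10 members there was 1 match, a TTCNNNGAA 178 bases before the canonical start of Naip2. Of 21769 promoters of the same length, 4.07% held the first motif and 9.20% the second. A window without a match says only that these letters are not in it.

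Casp1, the caspase that cleaves IL-1β, IL-18 and gasdermin D, measured 143, 134 and 133 CPM in WT libraries 1 to 3. In Drp1 KO libraries 1 to 3 it measured 180, 239 and 234 CPM. Drp1 KO library 1 was the nearest to WT, and still stood above every WT library. The means were 137 ± 5.82 and 217 ± 32.7 CPM (SD over 3 libraries each), and the log2 fold change was 0.67 (SE 0.119, 95% interval 0.41 to 0.93, adjusted p = 0.0145, edgeR). It had rank 258 by p among the genes tested. The call was lost on leaving out WT library 2 (adjusted p = 0.110), WT library 3 (0.0901), or the Drp1 KO libraries 2 (0.0753) or 3 (0.0516) in turn, with log2 fold changes of 0.60 to 0.64 in those fits.

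Casp4, the caspase that senses cytosolic lipopolysaccharide, measured 17.6, 19.4 and 16.8 CPM in WT libraries 1 to 3. Drp1 KO libraries 1 to 3 held 27.2, 38.6 and 32.7 CPM. All 3 lay above the WT range, and library 2 was the highest, as for Casp1. The means were 17.9 ± 1.36 and 32.8 ± 5.73 CPM (SD, n = 3 each), and the log2 fold change was 0.88 (SE 0.140, 95% interval 0.57 to 1.19, adjusted p = 0.0082, edgeR), rank 197 by p. Without WT library 3 the adjusted p was 0.0553.

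Within a library, the ratio of Casp4 to Casp1 CPM was 0.122, 0.145 and 0.126 in WT and 0.151, 0.162 and 0.140 in Drp1 KO. The groups overlapped. The mean log2 ratio was 0.20 higher in Drp1 KO (two-sided exact permutation test, p = 0.2, where 3 against 3 libraries cannot give less than 0.1), so a difference between the rises of the caspases was not shown. Their coding sequences are 57.8% identical, Casp1 shares no 31-base word with another gene and Casp4 shares 1.77% of its words, so few reads could have been split between them.

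Il18bp, a secreted protein that binds IL-18 and blocks its receptor binding, measured 47.0, 44.0 and 40.4 CPM in WT libraries 1 to 3. It measured 62.8, 76.2 and 52.7 CPM in Drp1 KO libraries 1 to 3. Library 3 was the lowest of each group, and the groups did not overlap. The means were 43.8 ± 3.30 and 63.9 ± 11.8 CPM (SD, n = 3 each), and the log2 fold change was 0.55 (SE 0.135, 95% interval 0.24 to 0.85, adjusted p = 0.0608, edgeR), just short of the threshold. With the replicate number as a block the log2 fold change was 0.53 and the adjusted p 0.00466. Without a block it also passed in DESeq2 (adjusted p = 0.0119) and in edgeR with no filter beyond 1 count (0.0103). Counts scaled for transcript length gave 0.34 (adjusted p = 0.338), and with a library left out the value ran from 0.40 (adjusted p = 0.198, without Drp1 KO library 2) to 0.67 (0.0288, without Drp1 KO library 3). Of these 6 fits, the last was the only 1 that passed. The annotated span of Il18bp (chr7:101638490-101668206, minus strand) overlaps Numa1, on the opposite strand, over 25899 bases. The counted Il18bp transcripts lie within chr7:101664092-101668206, so most of that overlap is outside them. Il18bp shares 7.77% of its 31-base words with Numa1. Numa1 stood at 171 CPM, and the strand setting of the quantification is not given in the sources used here, so some Il18bp counts are uncertain.

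Il18 itself, the cytokine that Il18bp binds, measured 11.8, 13.0 and 14.2 CPM in WT libraries 1 to 3 and 13.3, 20.3 and 15.8 CPM in Drp1 KO libraries 1 to 3. It was the member with the fewest counts, and 1 Drp1 KO library lay within the WT range. The log2 fold change was 0.34 (SE 0.163, 95% interval -0.02 to 0.71, adjusted p = 0.335, edgeR, 0.106 with the block), and leaving out a library moved it to between 0.17 (Drp1 KO library 2) and 0.46 (Drp1 KO library 1). The ratio of Il18 to Il18bp CPM was 0.251, 0.296 and 0.351 in WT and 0.212, 0.266 and 0.30 in the Drp1 KO group. Its mean log2 was 0.21 lower in Drp1 KO, with p = 0.5 in the exact permutation test, and the groups overlapped.

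Gsdmd, whose cleaved product forms the pyroptotic pore, held 44.2, 38.2 and 37.8 CPM across WT and 49.2, 43.7 and 42.2 CPM in Drp1 KO libraries 1 to 3. Each Drp1 KO library was above the WT library of the same number, but the groups overlapped. Its log2 fold change was 0.17 (SE 0.108, 95% interval -0.07 to 0.41, adjusted p = 0.507, edgeR), an interval that leaves out a rise as large as the fitted value of Casp1 or Casp4. Pycard, the adaptor that joins sensors to caspase-1, held 29.1, 31.3 and 35.0 CPM across WT and 31.1, 31 and 34.8 CPM in Drp1 KO libraries. Its groups covered nearly the same range, with a log2 fold change of 0.02 (SE 0.109, 95% interval -0.22 to 0.27, adjusted p = 0.964, edgeR). Counts scaled for transcript length gave 0.16 for Pycard, and the sign turned on leaving out any of 3 libraries.

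Of the 4 sensors, 0 passed in either edgeR fit, 0 by DESeq2 and 0 at an unadjusted p under 0.05, and their median log2 fold change was 0.03. Nlrp3, the sensor of potassium loss and membrane damage, held 27.7, 23.5 and 26.3 CPM across WT and 27.4, 20.5 and 25.4 CPM in Drp1 KO libraries 1 to 3. Library 2 was the lowest in each group, and each Drp1 KO library was slightly below the WT library of its number. Its log2 fold change was -0.08 (SE 0.131, 95% interval -0.37 to 0.21, adjusted p = 0.844, edgeR). Nlrc4, which assembles on ligand-bound NAIP proteins, held 44.7, 44.2 and 47.8 CPM across WT and 37.6, 45.7 and 47.2 CPM in Drp1 KO libraries. Apart from the lower Drp1 KO library 1, all libraries lay close together, and the log2 fold change was -0.07 (SE 0.110, 95% interval -0.31 to 0.18, adjusted p = 0.855, edgeR). For Nlrp3 and for Nlrc4 the sign turned when 1 Drp1 KO library was left out.

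The NAIP proteins bind bacterial ligands and then recruit NLRC4: NAIP2 binds the rod protein of type III secretion systems and NAIP5 binds flagellin. Naip2 held 216, 199 and 182 CPM across WT and 239, 218 and 204 CPM in Drp1 KO libraries 1 to 3, and Naip5 42.9, 49.2 and 49.2 CPM against 43.6, 56.5 and 54.6 CPM. Each was higher in the Drp1 KO library of every number, with overlapping groups. The log2 fold changes were 0.15 (SE 0.103, 95% interval -0.08 to 0.37, adjusted p = 0.557, edgeR) and 0.13 (SE 0.120, 95% interval -0.13 to 0.40, adjusted p = 0.669). Naip5 is 97.0% identical to Naip6 in coding sequence and 87.2% to Naip2. Of the 31-base words of Naip5, 53.2% occur in another gene, as do 24.7% of those of Naip2, so kallisto had to divide reads between the paralogs and these levels are uncertain.

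**Figure D2:**
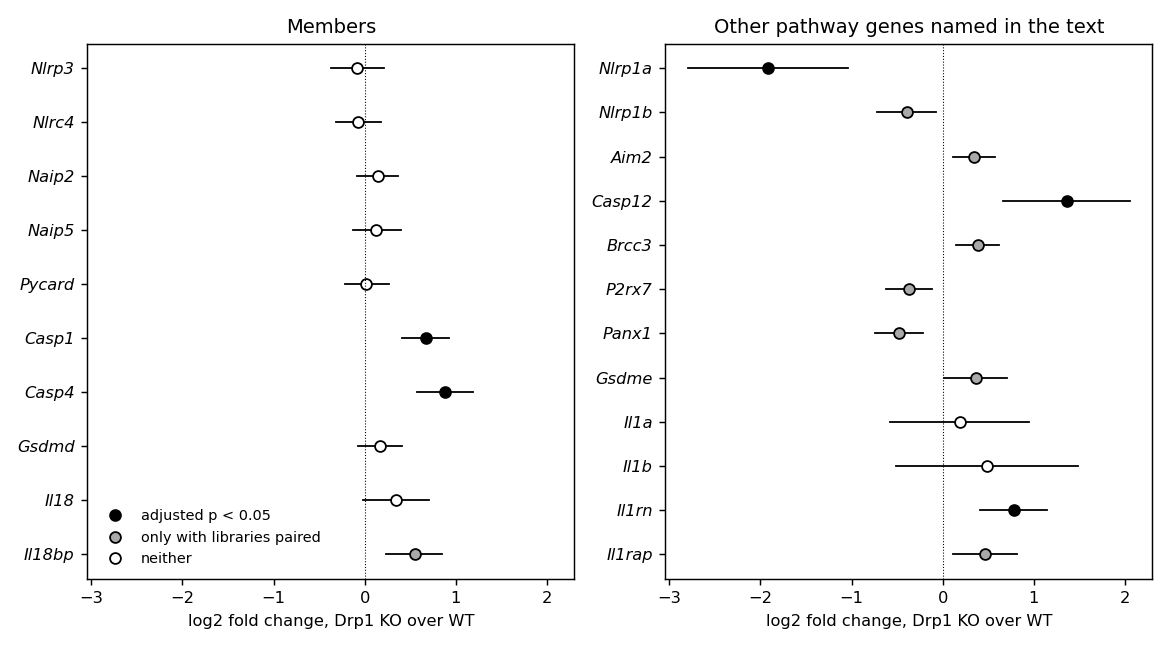
Log2 fold changes of Drp1 KO over WT with 95% intervals, for the 10 members (left) and 12 other pathway genes (right). Filled circles passed at an adjusted p under 0.05, grey ones passed in edgeR's fit only with the libraries paired, and open ones passed in neither of these fits. Casp1 (0.67) and Casp4 (0.88) are the filled members and Il18bp (0.55) the grey member.

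Levels of different genes were compared per length, as deposited TPM summed per gene. Casp1 had by far the highest TPM of the members, at 371 ± 13.2 in WT and 562 ± 119 in Drp1 KO libraries (SD, n = 3 each), the 98.6th percentile of the genes tested. In WT, Naip2 (66.5 TPM), Pycard (61.2 TPM) and Il18bp (57.5 TPM) came next, and neighbours in that order overlapped, although every Naip2 library was above every Il18bp library. Gsdmd (39.5 TPM) and Il18 (34.7 TPM) overlapped as well, and Casp4 stood below them at 27.4 ± 1.96 TPM. Nlrc4 (14.6 TPM), Naip5 (13.9 TPM) and Nlrp3 (11.4 TPM) were the lowest, and neighbours in that order overlapped. The 3 genes below Casp1 and the 3 lowest genes were the same in Drp1 KO libraries, in another order among themselves, whereas Casp4, at 46.6 ± 9.84 TPM, was above the means of Il18 (40.4 TPM) and Gsdmd (40.2 TPM) with overlapping libraries. Naip2 thus stood apart from the other 3 sensors, which had the lowest levels of the members.

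Several members were split over annotated transcripts, and the shares below describe kallisto's division of reads and carry no test. Most Casp1 counts lay on Casp1-203, a transcript of 702 bases in 5 exons, with 64.8 ± 2.40% in WT and 67.9 ± 2.51% in Drp1 KO libraries, against 33.0% and 29.6% on the canonical Casp1-201 of 1531 bases. The Casp1 TPM therefore rests mainly on a short transcript. For Casp4, the canonical Casp4-201 held 79.5 ± 4.23% in WT and 82.0 ± 2.51% in Drp1 KO libraries. Canonical Gsdmd-201 held 87.8% and 88.8%.

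Of 36 member transcripts with at least 10 estimated counts in total, in genes with several transcripts, the shares of 11 did not overlap between the groups, 4 higher and 7 lower in Drp1 KO. Over all 56937 such transcripts, 16.0% did not overlap, 8.06% higher and 7.89% lower. Shares within a gene are not independent, since a gain of one transcript is a loss of the others. For Il18bp, the shares of 3 of its 4 transcripts did not overlap. Il18bp-201 held 49.4%, 51.9% and 49.7% in WT libraries 1 to 3 and 57.7%, 61.5% and 58.4% in Drp1 KO libraries 1 to 3. The short Il18bp-204 held 8.13%, 6.65% and 3.34% in WT but 0.492%, 0.519% and 0% in Drp1 KO libraries, where at most 12.9 estimated counts fell on it. Il18bp-202, which starts upstream of the others, held 11.9 ± 0.673% and 7.62 ± 0.950%. Pycard-202, of 493 bases, held 31.4%, 30.2% and 31.3% in WT and 38.0%, 35.5% and 38.2% in Drp1 KO libraries, with Pycard-201 holding the rest.

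The shares of Naip2 and Il18 separated as well. Canonical Naip2-201 held 10.2%, 3.73% and 0.251% in WT and 12.1%, 20.1% and 16.2% in Drp1 KO libraries 1 to 3, and another transcript of 4823 bases held 43.2 ± 6.15% and 34.5 ± 1.73%. Il18-201 held 0%, 6.53% and 10.6% in WT and 14.9%, 13.1% and 12.2% in Drp1 KO libraries, while another transcript with the same start and end held 10.4 ± 8.19% and 1.71 ± 2.96%. Both of these Il18 transcripts have 702 bases, 5 exons and 576 coding bases. Kallisto's division of reads between them is therefore uncertain, and their separation is not read as a change. The spread of these Naip2 and Il18 shares among WT libraries was wide. The other 3 transcripts without overlap were Casp4-203, Casp4-205 and Gsdmd-206, each lower in Drp1 KO and with a mean share of at most 1.79% in either group.

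**Figure D3:**
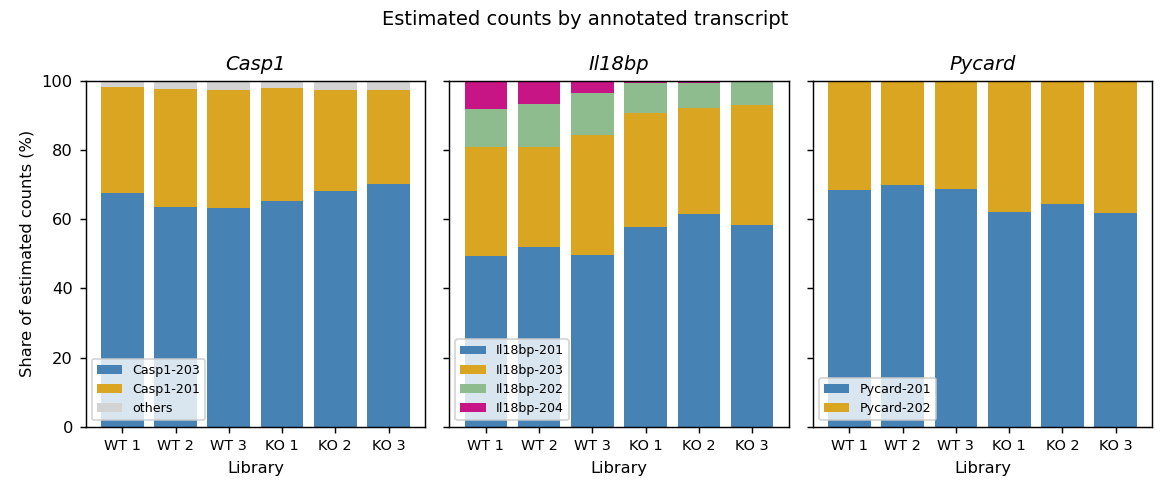
Share of each gene's estimated counts (%) on its annotated transcripts in each library, for Casp1, Il18bp and Pycard, transcripts under 5% in WT are drawn together as others. In Il18bp, the Il18bp-204 share is 3.34% to 8.13% in WT and at most 0.519% in Drp1 KO libraries, and in Pycard, the Pycard-202 share is higher in every Drp1 KO library.

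Beyond the members, 34 other genes of the pathway were examined, and all 34 were tested. At an adjusted p under 0.05 (edgeR), 2 rose, Casp12 and Il1rn, and 1 fell, Nlrp1a (with scaling by library size only, 1 rose and 2 fell), beside 2.29% of all genes that were called higher and 1.06% lower. With the replicate number as a block, 8 rose and 4 fell, beside 6.73% of all genes called higher and 5.22% lower in that fit. Their median log2 fold change was 0.14.

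Among 9 sensors, Nlrp1a, a sensor that is set off by protease cleavage or by loss of DPP9 activity, fell from 3.88, 2.85 and 3.92 CPM in WT to 1.04, 1.41 and 0.368 CPM in Drp1 KO libraries 1 to 3. The groups lay well apart, with a log2 fold change of -1.92 (SE 0.396, adjusted p = 0.0285, edgeR). The call was lost without WT library 2 (adjusted p = 0.0805) or WT library 3 (0.110), and Nlrp1a shares 9.91% of its 31-base words with other genes, mostly with Nlrp1b. Nlrp1b averaged 26.0 ± 5.08 CPM for WT and 19.8 ± 1.44 CPM for Drp1 KO libraries, a log2 fold change of -0.39 that passed with the block (adjusted p = 0.0328) and not without it (0.204), and it was -0.23 (0.562) without WT library 3. Aim2, the sensor of cytosolic DNA, likewise passed with the block (adjusted p = 0.0210) and not without it (0.123), at 49.3 ± 1.28 and 62.3 ± 6.92 CPM and a log2 fold change of 0.34. The other 6 sensors passed in neither fit.

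Casp12, the third gene of the caspase cluster, was expressed at a low level, with 0.474, 0.525 and 0.647 CPM among WT and 1.45, 1.5 and 1.32 CPM among Drp1 KO libraries. It rose with a log2 fold change of 1.36 (SE 0.313, adjusted p = 0.0451, edgeR), a call that was lost without any single library, with adjusted p of 0.0624 (without Drp1 KO library 1) to 0.188 (without WT library 2). With all libraries, the call was also lost with library size only (adjusted p = 0.0524, edgeR) and with counts scaled for transcript length (0.0698). Casp8 had a log2 fold change of 0.03.

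Of the 10 regulators, Brcc3, a deubiquitinase of NLRP3, averaged 43.8 CPM for WT and 57.3 CPM for Drp1 KO libraries (log2 fold change 0.39). P2rx7, the ATP-gated channel that sets off potassium loss, averaged 60.1 and 46.5 CPM (-0.37), and the channel gene Panx1 46.7 and 33.5 CPM (-0.48). These 3 passed with the block (adjusted p = 0.00983, 0.00893 and 0.00328) and not in the reported fit (0.0839, 0.121 and 0.0574), Brcc3 higher and the channels lower in Drp1 KO. DESeq2 without a block called these 3 as well. Without a block, edgeR also called Panx1 with library size only (0.0239), filterByExpr (0.0442) and no filter beyond 1 count (0.016). It did not with median-of-ratios size factors (0.0584) or counts scaled for transcript length (0.167). The remaining 7 regulators passed neither with the block nor in the reported fit. Gsdme, a pore-forming relative of Gsdmd, averaged 17.5 and 22.6 CPM and passed with the block (log2 fold change 0.37, adjusted p = 0.0290) and not without it (0.269). Its value was 0.24 without WT library 1 (adjusted p = 0.435) or Drp1 KO library 3 (0.570).

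In the cytokine and receptor group of 9, Il1rn, the antagonist of the IL-1 receptor, rose from 264, 271 and 288 CPM in WT to 519, 337 and 559 CPM in Drp1 KO libraries 1 to 3. All Drp1 KO libraries were above WT, library 2 by the least, with a log2 fold change of 0.78 (SE 0.166, adjusted p = 0.0322, edgeR). This call was lost when any library but Drp1 KO library 2 was left out, with adjusted p of 0.0591 (without Drp1 KO library 1), 0.0657 (WT library 1), 0.0937 (Drp1 KO library 3), 0.114 (WT library 3) and 0.172 (WT library 2). Counts scaled for transcript length also lost the Il1rn call (adjusted p = 0.0696, edgeR). Il1b, the precursor that caspase-1 activates, was close to silent with 1.09 ± 0.309 CPM for WT and 1.51 ± 0.875 CPM for Drp1 KO libraries (adjusted p = 0.676). Il1a averaged 22.3 ± 8.47 and 25.4 ± 12.5 CPM (adjusted p = 0.871), and its level varied more between library numbers than between groups. Il1rap, a chain of the IL-1 receptor, averaged 6.52 and 8.98 CPM and passed with the block (log2 fold change 0.46, adjusted p = 0.0331) and not without it (0.166).

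Other gene groups moved with genotype beside these results. The summed CPM of 15 interferon-stimulated genes ran from 642 to 1000 over WT and from 2610 to 3680 over Drp1 KO libraries. At an adjusted p under 0.05 (edgeR), 13 of the 15 rose, beside 2.29% of all genes tested that were called higher. Of 11 neutrophil markers, 8 were tested and all 8 had a positive log2 fold change, and 0 passed the threshold in edgeR without the block, 2 by DESeq2 and 5 with the block, while 5 had an unadjusted p under 0.05. Among all 18506 genes tested, 3.36% passed in edgeR without the block and 12.0% with it. DESeq2 called 1155 of them, and 3038 had an unadjusted p under 0.05 in edgeR without the block. Those markers reached 90.3 to 98.5 CPM per WT library and 119 to 221 CPM per Drp1 KO library, with Ly6g at 0 in every library and Elane and Retnlg below the filter. The part of either group in the caspase and Il18bp results was not tested.

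The genes whose centred log2 CPM ran closest to a member over the 6 libraries were sought among the 12238 genes that averaged 1 CPM or more, by the root-mean-square difference (RMS). For Casp1 they were Psmc6 (RMS 0.0554), Ncapd2 (0.0578) and Tmem68 (0.0713). For Casp4 they were Fbxw17 (RMS 0.101), Parp11 (0.103) and Zfp874a (0.112), and for Il18bp Eif4e (0.0605), Fbxl4 (0.0662) and Yrdc (0.0674). Casp1 and Casp4 differed from each other by an RMS of 0.140, from Il18bp by 0.206 and 0.234, and from Il18 by 0.222 and 0.293. Nlrp3 was the most distant member from each, at 0.447 and 0.559. The RMS takes in the difference between the groups.

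**Figure D4:**
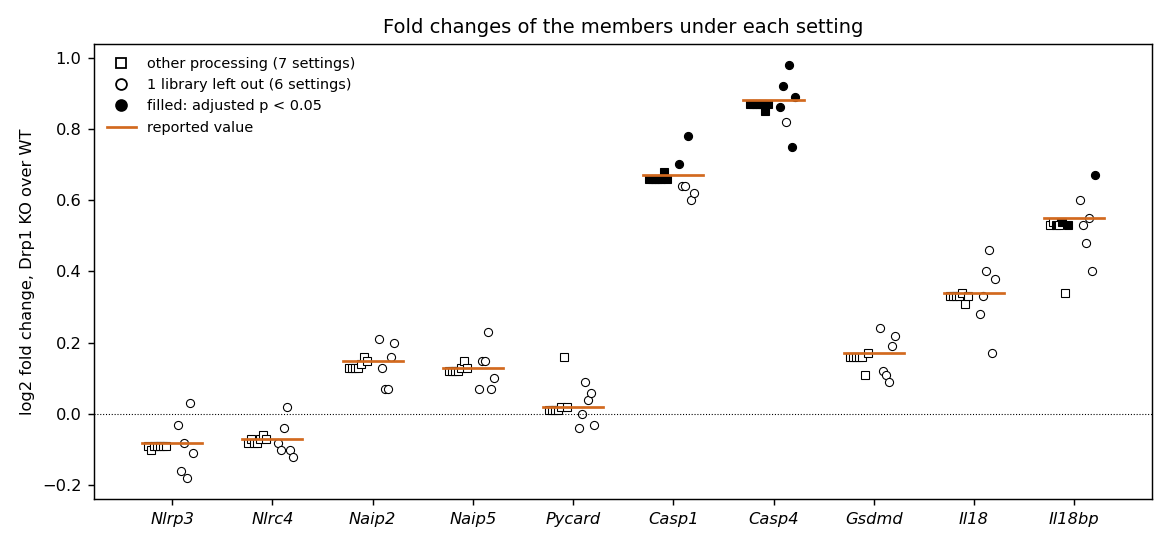
Log2 fold changes of the 10 members under 7 other ways of processing (squares) and with each of the 6 libraries left out (circles), filled where the adjusted p was under 0.05, with a line at the reported value. Casp4 passed in 12 of the 13 settings, Casp1 in 9 and Il18bp in 4, and the values of Casp4 ran from 0.75 to 0.98.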

How the data were processed

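Poly(A) RNA of 6 BMDM cultures was sequenced by the authors with a stranded mRNA kit, per the labels. The authors quantified reads with kallisto 0.46.1 on Ensembl transcripts of GRCm39 and deposited, per transcript and library, an estimated count and its TPM. The TPM deposited served for levels between genes. Per the labels DESeq2 1.44.0 was also used. No deposited comparison was used.

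Of 116873 transcripts, 99.4% matched GENCODE M39 by identifier, and the rest, with 0.542% to 0.575% of the counts of a library, was dropped. The matched annotation is of another release, and 24 of 38 member transcripts have the same length in it. Counts were summed per gene and rounded. Genes with at least 10 counts were fitted with edgeR 4.0.16 (R 4.3.3; TMM; quasi-likelihood test, no covariate; Benjamini-Hochberg over all genes, threshold 0.05). Standard errors are the fold change over the square root of F. The fit was tested on simulated data first.

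Deviations of same-numbered libraries had correlations of 0.510, 0.204 and 0.298, each over 0.1, against -0.443 to 0.326 for unlike numbers. WT library 2 correlated more with Drp1 KO library 3 (0.326) than with Drp1 KO library 2 (0.204). Deviations were taken from each group's mean, so these correlations are not independent, and a match by number was clear only for number 1. The fit with the number as a block, an alternative to the reported unpaired fit, is given where it changes a call. No source used here states a pairing. No library was a copy of another (chi-square per degree of freedom at least 9.50). Alternatives were the block, DESeq2 1.42.0, other size factors and filters, length-scaled counts, and each library left out. Word sharing was counted over annotated transcripts.

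Named were all members, pathway genes past the threshold in either fit, the lowest p of each role, Il1a, Il1b, Il1rn and Aim2, and the 3 genes closest to each called member. Some pathway genes that enter the counts are not reported here by name. The members and lists were chosen with earlier results of these data known.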

Additional observations from a re-analysis of the deposited data

How the results depend on the processing

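Casp1, Casp4 and Il18bp kept a positive fold change under all 13 alternatives. DESeq2, fits with the median-of-ratios size factors, library size only, filterByExpr or no filter beyond 1 count, and length-scaled counts each called 2 or 3 members. Pairing the libraries by number (replicate block) called 3 members, with a median log2 fold change of 0.157, and among the members changed no call but that of Il18bp. It called 12 pathway genes (8 higher, 4 lower), against 3 without it, 7 by DESeq2 and 1 with length-scaled counts. In the same order, these settings called 2212, 621, 1155 and 453 of all genes. Leaving out a library gave 0 (without WT library 3) to 2 members, a member median of 0.134 (without WT library 3) to 0.224 (without WT library 1), and 0 (without WT library 2 or 3) to 3 pathway genes. With a library left out, signs turned for Nlrp3 (-0.18 to 0.03, positive without Drp1 KO library 2), Nlrc4 (-0.12 to 0.02, positive without Drp1 KO library 1), Pycard (-0.04 to 0.09, at -0.04, -0.00 and -0.03 without WT libraries 1 and 2 and Drp1 KO library 3) and Il1a (-0.25 to 0.52, at -0.25 and -0.05 without Drp1 KO library 1 and WT library 3), none of which passed in any fit. Without a library, Il18 ran from 0.17 to 0.46, Gsdmd from 0.09 to 0.24, Naip2 from 0.07 to 0.21 and Naip5 from 0.07 to 0.23, and none of these 4 passed. The cause of these changes was not tested. Over all genes, the settings called 181 (without WT library 2) to 2212 (replicate block). The log2 ratio of Il18 to Il18bp stayed negative (-0.33 to -0.05, the latter from TPM), and that of Casp4 to Casp1 stayed positive. The fold change of Dnm1l ran from -0.28 to -0.20, with adjusted p of 0.0738 to 0.519. Length-scaled counts moved Brcc3 to 0.24. Depth limits the members little, since each had at least 274 estimated counts in every library, but Casp12, Nlrp1a, Nlrp6, Serpinb1a, Il1r2 and Sigirr averaged under 1 CPM in at least 1 group.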

Other observations

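The tested genes next to the caspase cluster on chromosome 9 were looked up after the values of the caspases were seen. Upstream of Casp1, Msantd4 measured 49.6 to 60.2 CPM in WT and 49.0 to 54.3 CPM in Drp1 KO libraries, with a log2 fold change of -0.10 (adjusted p = 0.715, edgeR), and Gria4 had at most 0.716 CPM in any library (-0.37, adjusted p = 0.842). Downstream of Casp12, which starts 8631 bases after Casp4, Ddi1 had at most 0.703 CPM (1.02, adjusted p = 0.534). Gm48674 measured 0.852 to 1.03 CPM in WT and 0.367 to 0.491 CPM in Drp1 KO libraries without overlap (-1.12, adjusted p = 0.135).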
